A study of Mus musculus with 18 samples.

Results

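The first postnatal week of the wild-type (WT) mouse retina was described by setting 3 arrays of retinas of postnatal day 7 (P7 WT) against 3 arrays of retinas of the day of birth (P0 WT), 6 of the 18 arrays of the series. The arrays were taken by the age and genotype in their labels. The series itself asked what the loss of Plk3, a polo-like kinase, does to the retina, and also holds Plk3-KO retinas of the same 2 ages and adult retinas of both genotypes, with 3 arrays for each of the 6 groups. The retinas on these 6 arrays came from untreated WT littermates of Plk3-KO mice, from a line crossed to C57Bl/6 (the strain given in the labels). As the study describes it, the line was in part of a Black Swiss background carrying the Rd1 allele of retinal degeneration, which was removed by breeding. Total RNA of isolated retinas was hybridised to Affymetrix mouse genome arrays, and the values are MAS5 signals as log2, where a difference of 1 is a doubling. Neither litters nor the number of retinas per array are given, so each p-value measures only a spread between arrays. That spread was shared over all 18 arrays of the series, so an SE is not the spread of the 6 signals printed beside it. Checked against its cell-type markers, the tissue carried those of photoreceptors, bipolar, amacrine, horizontal and ganglion cells and Müller glia in part. Of the list genes on the array, 6 of 24 bipolar, 6 of 28 amacrine, 2 of 13 cone, 2 of 23 ganglion, 1 of 10 horizontal and 1 of 22 rod genes did not reach the minimum described below at either age, and others, such as Gnat1, Cnga1, Prph2, Mlc1 and Aqp4, lay below it on every P0 WT array.

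At birth the mouse retina is still a mixture of dividing progenitor cells and young neurons. Ganglion cells, horizontal cells, cones and most amacrine cells are born before birth, whereas rods, bipolar cells and Müller glia, the radial glia of the retina, are largely born around and after it. During the first week progenitors leave the cell cycle, rods start to build the light-sensing cascade, and the first synapses of the outer retina form.

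A probe set was tested when its mean log2 signal was above 7 at either age, the minimum of the study's methods, and called at an adjusted p under 0.05 (limma, fitted to the 18 arrays, with Benjamini-Hochberg adjustment over all 23411 probe sets tested). At P7, 2503 probe sets were higher (10.7% of those tested) and 2214 were lower (9.46%) than at P0. With 1 probe set per gene, the one of highest mean signal, 1714 of 11464 genes were higher (15.0%) and 1188 were lower (10.4%). These shares over all genes belong beside each list count below. The median difference was 0.03 over all genes and −0.10 over all probe sets. Each group had 3 arrays, for which the exact two-sided permutation test of a single gene cannot go below p = 0.1. Over all probe sets tested, each P7 array lay above each P0 array in 4038 (17.2%) and below in 5578 (23.8%), and of these 2427 were called higher and 2170 lower. Over genes the shares were 23.3% above and 19.4% below. In 562 probe sets called higher the P0 WT mean was at or below 7, and in 532 called lower the P7 WT mean was, so that the size of those differences is not firm. With each array centred on its median the split was 2232 higher and 1058 lower, and the median of all probe sets was 0.13. The cause of the changed split was not tested. After quantile normalization that median was −0.03.

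The arrays were not equally alike. P7 WT array 3 had a median signal of 6.4, against 6.9 on the other P7 WT arrays, and 6.9 to 7 on the P0 WT arrays. Its actin control probe sets differed by 1.6 between their 3' and 5' ends, against 0.8 and 1 on the other P7 WT arrays and 1 to 1.1 on the P0 WT arrays. Genes of the lens, a tissue in front of the retina, had a mean signal over the 16 genes of the lens list of 4.91, 5.80 and 5.02 on the P7 WT arrays, against 8.63, 4.61 and 13.97 on the P0 WT arrays. Among the P0 WT arrays this level was thus highest on array 3, lower on array 1 and lowest on array 2. The adult arrays, which enter the shared spread, correlated with others of their group at 0.81 to 0.92. For the P0 and P7 arrays of both genotypes this was 0.91 to 0.95. Where leaving out 1 array moved a list's count of calls by over 1.5 times, this is given beside the count.

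**Figure D1:**
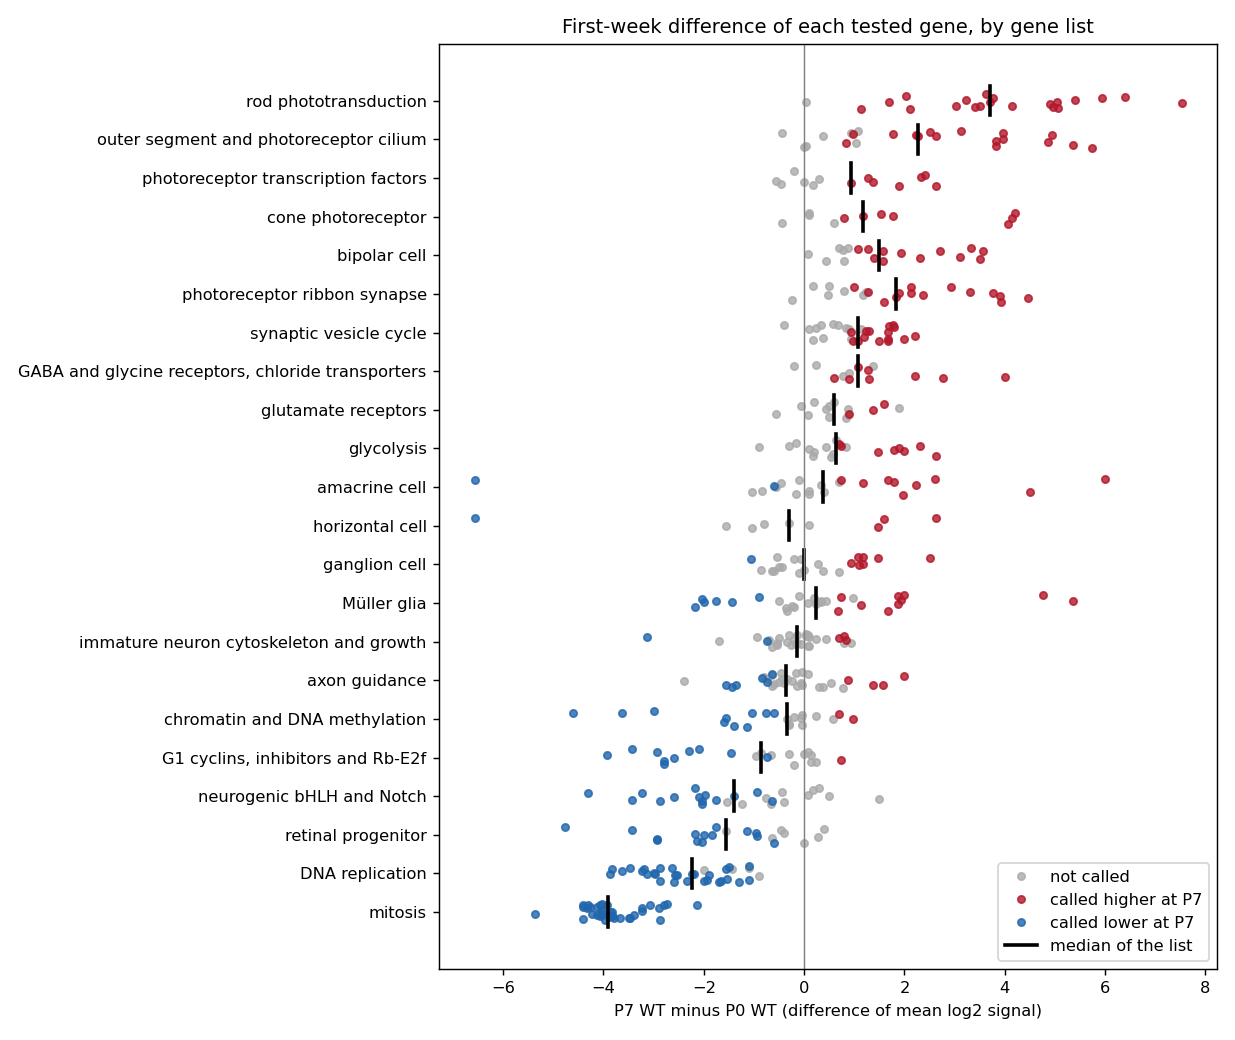
Difference of mean log2 signal, P7 WT minus P0 WT, for each tested gene (points) of 22 gene lists (rows), with the median of each list as a black bar and genes called higher or lower in colour. Rod phototransduction lies furthest to the right, with a median of 3.70, and mitosis furthest to the left, with a median of −3.92.

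The largest median gain among the lists was that of the rod, the photoreceptor of dim light. Of 22 genes of the rod phototransduction list on the array, 21 passed the minimum and 20 were higher at P7, none was lower, and the median difference was 3.70 log2 units, against 0.03 over all genes tested. In RNA of whole retinas, more cells of a type and more RNA per cell cannot be told apart, which holds for every list. With any one of the 6 arrays left out, 20 members were called. The list gene that was not called, Rgs9, which shuts off transducin, had signals of 7.6, 7.7 and 8.2 on the P7 WT arrays, against 7.8, 7.8 and 7.8 on the P0 WT arrays, with overlapping groups. Gucy2e, a guanylate cyclase, stayed below the minimum, with 3.6, 6.2 and 2.5 on the P7 WT arrays, against 1.0, 0.7 and 0.9 on the P0 WT arrays.

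Along the cascade itself, the subunits of transducin, phosphodiesterase and the cation channel all gained. Gnat1, the rod transducin alpha subunit, had log2 signals of 11.4, 12.5 and 10.2 on the P7 WT arrays, against 5.9, 4.2 and 4.8 on the P0 WT arrays, a difference of 6.40 (SE 0.55, adjusted p = 7.8e-07, limma). Pde6b, a catalytic subunit of the rod phosphodiesterase, had 14.2, 13.8 and 14.7 on the P7 WT arrays, against 8.9, 10.5 and 8.1 on the P0 WT arrays, a difference of 5.07 (SE 0.48, adjusted p = 1.91e-06). Cnga1, the alpha subunit of the cGMP-gated channel that the cascade closes, had 11.7, 12 and 11.9 on the P7 WT arrays, against 3.0, 4.6 and 5.4 on the P0 WT arrays. At 7.53 (SE 0.53, adjusted p = 1.16e-07) this was the largest difference of the list, but its P0 signals, like those of Gnat1, lay below 7, so that only its direction and rough size can be read. All P7 arrays lay above all P0 arrays for each of these 3 genes.

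Genes that regulate the light response and the recovery from it were among those that gained too. Rcvrn, recoverin, a calcium sensor, had 13.7, 13.7 and 13.4 on the P7 WT arrays, against 9.0, 9.2 and 7.5 on the P0 WT arrays, a difference of 5.03 (SE 0.43, adjusted p = 7.25e-07). Sag, rod arrestin, had 14.7, 14.4 and 15 on the P7 WT arrays, against 11.5, 11.8 and 11.1 on the P0 WT arrays, a 9.4-fold higher signal at P7 (difference 3.23, SE 0.32, adjusted p = 2.97e-06). Both genes lay above the minimum on every P0 array, unlike the channel, and their groups did not overlap. Grk1, rhodopsin kinase, had 8.7, 9.5 and 6.9 on the P7 WT arrays, against 2.1, 2.3 and 2.9 on the P0 WT arrays, a difference of 5.93 with every P0 signal far below the minimum. Slc24a1, the rod sodium, calcium and potassium exchanger, differed by 5.40, and Rdh12, a retinol dehydrogenase of the visual cycle, by 4.97 (12.2, 12 and 11.6 on the P7 WT arrays, against 6.9, 7.4 and 6.6 on the P0 WT arrays), one of the 8 smallest p-values among genes that rose (adjusted p = 1.2e-08).

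Genes of the outer segment, the stack of discs that captures light, and of its cilium rose in most cases. Of 23 members tested, 16 were higher, none was lower, and the median difference was 2.27. Prph2, peripherin, which shapes the disc rim, had 9.5, 9.2 and 10.3 on the P7 WT arrays, against 3.2, 6.8 and 2.9 on the P0 WT arrays, a difference of 5.37 (SE 0.97, adjusted p = 9.25e-04). Impg1, a component of the matrix between photoreceptors, had 8.9, 9.3 and 8.8 on the P7 WT arrays, against 2.6, 4.6 and 2.6 on the P0 WT arrays, and Fscn2, an actin-bundling protein of photoreceptors, had 7.4, 7.4 and 7.6 on the P7 WT arrays, against 1.8, 3.3 and 2.7 on the P0 WT arrays. Reep6 differed by 4.93 and Prcd by 3.97. Among ciliary genes, Bbs2, a subunit of the BBSome, differed by 0.97 (adjusted p = 0.00278), whereas Rpgrip1, a protein of the connecting cilium, had 13.6, 13 and 12.2 on the P7 WT arrays, against 12.4, 11.8 and 11.4 on the P0 WT arrays and was not called (adjusted p = 0.158). The groups overlapped for Rpgrip1 and not for Bbs2.

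Transcription factors that direct photoreceptors were higher in about as many cases as not. Of 13 tested, 7 were higher and none was lower (median 0.93). Nrl, the leucine zipper factor that makes a photoreceptor precursor a rod, had 14.8, 14.4 and 15.4 on the P7 WT arrays, against 12.5, 12.9 and 12 on the P0 WT arrays, a 5.28-fold higher signal (difference 2.40, SE 0.32, adjusted p = 5.94e-05). Crx, the homeodomain factor of all photoreceptors, had 13.6, 13.4 and 14.3 on the P7 WT arrays, against 11.9, 12.1 and 11.6 on the P0 WT arrays, a 3.73-fold higher signal (difference 1.90, SE 0.28, adjusted p = 1.29e-04). Samd7 and Samd11, partners in silencing non-rod genes, differed by 2.63 and 2.33. Otx2, which acts upstream of Crx, had 13.6, 13.4 and 13.9 on the P7 WT arrays, against 13.6, 13.7 and 13.1 on the P0 WT arrays, and Neurod1, needed for photoreceptor survival, had 14.5, 14.2 and 14.7 on the P7 WT arrays, against 14.3, 14.3 and 13.9 on the P0 WT arrays. In both the groups overlapped, and neither was called (adjusted p = 0.618 for Otx2 and 0.387 for Neurod1).

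Cone genes were not uniform. Of 11 tested, 7 were higher and none was lower (median 1.17). Opn1sw, the short-wave opsin, had 12.7, 12.7 and 12.4 on the P7 WT arrays, against 12.1, 12.3 and 11.6 on the P0 WT arrays, a difference of 0.60 (SE 0.29) that did not pass (adjusted p = 0.157), although the groups did not overlap. Opn1mw, the middle-wave opsin, which is known to start later, had 7.8, 7.9 and 6.8 on the P7 WT arrays, against 3.0, 4.2 and 2.9 on the P0 WT arrays, a difference of 4.13 (adjusted p = 7.82e-06). Arr3, cone arrestin, had 10.2, 10.1 and 10 on the P7 WT arrays, against 5.8, 5.9 and 6.0 on the P0 WT arrays, a difference of 4.20 (SE 0.38, adjusted p = 1.27e-06). Pde6h, the cone phosphodiesterase inhibitory subunit, had 11.5, 11.3 and 8.0 on the P7 WT arrays, against 6.9, 5.9 and 5.8 on the P0 WT arrays, where P7 WT array 3 lay far below the other P7 arrays but above each P0 array.

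**Figure D2:**
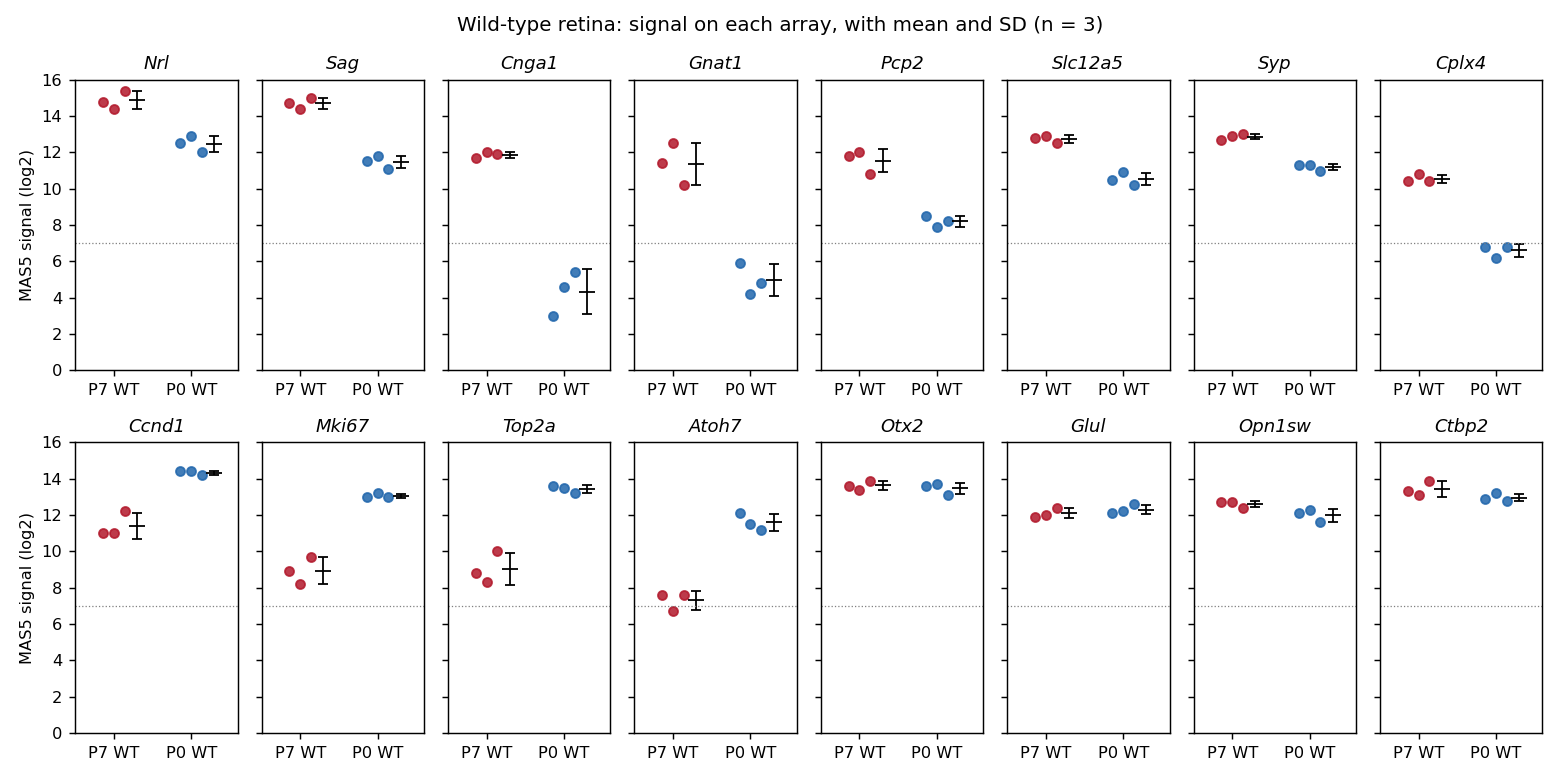
MAS5 signal (log2, y axis) of 16 genes on each P7 WT array (red, left) and each P0 WT array (blue, right), with mean and SD of 3 arrays in black and the minimum of 7 as a dotted line. Nrl, Sag, Cnga1, Gnat1, Pcp2, Slc12a5, Syp and Cplx4 lie higher at P7, Ccnd1, Mki67, Top2a and Atoh7 lie lower, and Otx2, Glul, Opn1sw and Ctbp2 were not called.

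The promoters of the rod genes were read for the letters that photoreceptor factors bind. TAATCC is the core bound by Crx and TGCTGA the half-site bound by Nrl, and both were searched on both strands of 250 bases before to 50 after the start of each gene (RefSeq, GRCm38.p6, the first promoter of each gene), a region found for 9309 of the genes tested. TAATCC occurred in 8 of 15 rod phototransduction promoters (53.3%), in 9.56% of 900 genes called higher by at least 1, in 2.80% of 642 genes called lower by at least 1, and in 5.45% of all genes tested (7.16% of all promoters in the table). In the other photoreceptor lists it occurred in 15.0% of 20 outer segment and cilium promoters and 23.5% of 17 ribbon synapse promoters. TGCTGA occurred in 6 of the 15 (40.0%), in 15.0% and 23.5% of those lists, and in 14.7% of all genes tested. A match is a string of letters, not a binding event, and neither share was tested. The promoters of Cngb1, the beta subunit of the rod channel, which holds the string at 2 places, and of Gngt1, the rod transducin gamma subunit, are shown. Both hold the string and were chosen from the list with the largest median gain after the matches were seen. Capitals mark TAATCC or its reverse complement GGATTA, 5′ to 3′ on the strand of the gene (Cngb1, chr8:95306536-95306835, minus strand; Gngt1, chr6:3993758-3994057, plus strand).
Cngb1: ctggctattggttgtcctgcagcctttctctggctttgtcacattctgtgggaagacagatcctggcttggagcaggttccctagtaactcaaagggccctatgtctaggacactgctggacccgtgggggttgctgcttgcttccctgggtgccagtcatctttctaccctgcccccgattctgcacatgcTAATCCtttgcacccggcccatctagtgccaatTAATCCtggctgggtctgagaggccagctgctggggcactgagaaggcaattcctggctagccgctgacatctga
Gngt1: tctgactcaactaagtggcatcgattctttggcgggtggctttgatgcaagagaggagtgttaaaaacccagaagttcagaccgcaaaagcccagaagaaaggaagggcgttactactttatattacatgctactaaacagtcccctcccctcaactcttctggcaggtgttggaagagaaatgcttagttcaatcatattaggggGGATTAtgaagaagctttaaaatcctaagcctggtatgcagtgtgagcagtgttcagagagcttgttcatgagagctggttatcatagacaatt
The genes of both promoters were higher at P7. Cngb1 had 12.2, 12.4 and 11.4 on the P7 WT arrays, against 8.1, 8.5 and 8.3 on the P0 WT arrays, a difference of 3.70, and Gngt1 had 13.3, 13.5 and 14.6 on the P7 WT arrays, against 9.2, 9.9 and 7.6 on the P0 WT arrays, a difference of 4.90. Rod promoters without TAATCC included those of Grk1 (difference 5.93), Slc24a1 (5.40), Pde6b (5.07), Rdh12 (4.97), Gnb1 (1.13) and Rgs9 (0.03). Those with it included Cnga1 (7.53), Gnb5 (2.10) and Rbp3 (2.03). A link between the string and the size of the gain was not tested.

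Genes of dividing cells fell almost throughout. All 36 genes of the mitosis list were lower at P7, with a median difference of −3.92 and a range from −5.37 (Ndc80, a kinetochore protein) to −2.13, and all 36 stayed called without any one array. Each P7 array lay below each P0 array for all 36 of them, against 19.4% of all genes tested. Mki67, the antigen of cycling cells, had 8.9, 8.2 and 9.7 on the P7 WT arrays, against 13, 13.2 and 13 on the P0 WT arrays, a difference of −4.13 (SE 0.49, adjusted p = 1.96e-05). Top2a, the topoisomerase that untangles replicated DNA, had 8.8, 8.3 and 10 on the P7 WT arrays, against 13.6, 13.5 and 13.2 on the P0 WT arrays, a difference of −4.40 (SE 0.57, adjusted p = 4.8e-05). Cdk1, the kinase that starts mitosis, had 8.5, 8.1 and 9.2 on the P7 WT arrays, against 12.9, 12.7 and 12.4 on the P0 WT arrays, a difference of −4.07 (adjusted p = 1.26e-06). P7 WT array 3 was the highest of the P7 arrays for each of these 3 genes, and without it the median of the list was −4.23.

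The P7 signals of Mki67, Top2a and Cdk1 all lay above the minimum, and in adult WT retinas the means were 1.23, 4.10 and 5.47. The 8 smallest p-values among genes that fell were those of Tpx2, a spindle assembly factor (7.1, 6.6 and 7.1 on the P7 WT arrays, against 11.1, 11.3 and 11.2 on the P0 WT arrays, adjusted p = 4.42e-08), Tcf19 (7.6, 7.1 and 7.9 on the P7 WT arrays, against 11.3, 11.3 and 11.1 on the P0 WT arrays), Fbxo5, an inhibitor of the anaphase-promoting complex (7.4, 7.4 and 6.4 on the P7 WT arrays, against 11.2, 11.4 and 11.5 on the P0 WT arrays), Ncapd2, a condensin subunit (8.8, 8.4 and 8.6 on the P7 WT arrays, against 11.4, 11.5 and 11.6 on the P0 WT arrays), and Kif11, Cenpe, Aspm and Mad2l1, which serve the spindle and its checkpoint.

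DNA replication genes fell less far. Of 33 tested, 29 were lower, none was higher, and the median difference was −2.23. Rrm2, the regulated subunit of ribonucleotide reductase, had 8.5, 8.0 and 9.2 on the P7 WT arrays, against 12, 12.5 and 12.8 on the P0 WT arrays, a difference of −3.87 (SE 0.91, adjusted p = 0.00648). Mcm6 of the replicative helicase had 9.4, 8.5 and 9.7 on the P7 WT arrays, against 12.6, 12.6 and 12.1 on the P0 WT arrays, a difference of −3.23 (adjusted p = 6.55e-06). Pcna, the sliding clamp, which non-dividing cells also use for repair, had 12.8, 12.6 and 13.6 on the P7 WT arrays, against 14.5, 14.3 and 14.1 on the P0 WT arrays, a difference of −1.30 (adjusted p = 0.00576). Mcm2 had 9.4, 8.4 and 9.6 on the P7 WT arrays, against 10.3, 9.9 and 10.5 on the P0 WT arrays and was not called (adjusted p = 0.123), although its groups did not overlap. Fen1, a flap endonuclease, had 9.4, 9.5 and 9.7 on the P7 WT arrays, against 10.8, 10.5 and 10 on the P0 WT arrays and was not called either, at 0.0668. On the 6 arrays alone, 32 of the 33 were called.

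Genes of the G1 phase, in which a cell commits to divide or to leave the cycle, fell in part. In the list of G1 cyclins, inhibitors and Rb-E2f genes, 10 of 21 were lower and 1, E2f3, was higher (median −0.87). The higher call, a difference of 0.73, was lost without any one array other than P7 WT array 3. Ccnd1, cyclin D1, the main G1 cyclin of the retina, had 11, 11 and 12.2 on the P7 WT arrays, against 14.4, 14.4 and 14.2 on the P0 WT arrays, a difference of −2.93 (SE 0.29, adjusted p = 3.63e-06). E2f1 (6.4, 6.0 and 7.3 on the P7 WT arrays, against 8.9, 9.5 and 9.7 on the P0 WT arrays), E2f7 (difference −3.43) and E2f8 (difference −3.93) fell, and so did Rbl1, the p107 pocket protein (8.4, 8.4 and 8.4 on the P7 WT arrays, against 11, 11.3 and 11.3 on the P0 WT arrays). Cdkn1b, the p27 inhibitor that retinal cells use to leave the cycle, had 11.7, 11.9 and 11.7 on the P7 WT arrays, against 11.8, 11.8 and 12.3 on the P0 WT arrays, and Cdkn1c, the p57 inhibitor, had 10.8, 11.1 and 10.4 on the P7 WT arrays, against 11.8, 10.7 and 12.4 on the P0 WT arrays. In both inhibitors the groups overlapped and the adjusted p missed the threshold (0.726 for Cdkn1b and 0.136 for Cdkn1c).

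The polo-like kinases, the family that the series is about, moved in opposite directions. Plk1, which drives mitosis, had 7.1, 6.8 and 7.7 on the P7 WT arrays, against 9.7, 10.3 and 10.3 on the P0 WT arrays, a difference of −2.90 (SE 0.35, adjusted p = 2.61e-05), and Plk4, which controls centriole duplication, had 9.1, 8.2 and 8.8 on the P7 WT arrays, against 11.5, 11.6 and 11.6 on the P0 WT arrays, a difference of −2.87 (adjusted p = 3.53e-07). Plk2, a kinase known for roles at synapses, had 9.1, 10 and 9.4 on the P7 WT arrays, against 8.6, 8.1 and 8.4 on the P0 WT arrays, a difference of 1.13 (adjusted p = 0.00329), and Plk5, found in the brain, had 8.5, 9.1 and 7.8 on the P7 WT arrays, against 7.1, 4.2 and 5.8 on the P0 WT arrays, a difference of 2.77 (adjusted p = 0.00803). Plk3 itself, with 6.0, 6.3 and 6.0 on the P7 WT arrays, against 6.4, 6.9 and 7.3 on the P0 WT arrays, did not reach the minimum at either age and was not tested.

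Promoters of the mitotic genes were read in the same way for 3 strings of cell cycle genes. CCAAT is bound by NF-Y, TTTGAA is the core of the CHR element of G2 and mitotic genes, and TTTNNCGC is a form of the E2F site. None of these strings contains another. CCAAT occurred in 22 of 29 mitosis promoters (75.9%), against 63.0% of 27 replication promoters, 53.3% of 15 rod promoters and 39.2% of all genes tested, and TTTGAA in 22 of 29 (75.9%), against 11.1% of replication promoters, 13.3% of rod promoters and 11.1% of all genes tested. Among genes called lower by at least 1, 49.1% held CCAAT and 20.2% held TTTGAA. TTTNNCGC occurred in 10 of 27 replication promoters (37.0%), in 1 of 29 mitosis promoters (3.45%) and in 9.06% of all genes tested. Over all promoters in the table the shares were 37.9% for CCAAT, 18.1% for TTTGAA and 5.27% for TTTNNCGC, and none of these shares was tested. The promoters of Top2a and Cdk1, with capitals at CCAAT and at TTTGAA on either strand, and that of Mcm6, with capitals at TTTNNCGC on either strand, show how the strings lie together (Top2a, chr11:99024140-99024439, minus strand; Cdk1, chr10:69352863-69353162, minus strand; Mcm6, chr1:128359656-128359955, minus strand).
Top2a: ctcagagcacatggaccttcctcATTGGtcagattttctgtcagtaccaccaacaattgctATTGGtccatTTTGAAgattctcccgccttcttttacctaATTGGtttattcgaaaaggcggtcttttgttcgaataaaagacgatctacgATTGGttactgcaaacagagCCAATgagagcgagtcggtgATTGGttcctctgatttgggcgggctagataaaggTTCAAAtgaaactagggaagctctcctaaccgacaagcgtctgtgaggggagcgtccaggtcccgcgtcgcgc
Cdk1: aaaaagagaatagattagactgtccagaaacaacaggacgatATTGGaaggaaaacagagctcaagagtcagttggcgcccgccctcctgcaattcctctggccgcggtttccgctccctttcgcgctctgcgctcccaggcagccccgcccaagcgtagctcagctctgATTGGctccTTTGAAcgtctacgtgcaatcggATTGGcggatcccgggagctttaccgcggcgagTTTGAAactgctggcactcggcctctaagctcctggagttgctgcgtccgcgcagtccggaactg
Mcm6: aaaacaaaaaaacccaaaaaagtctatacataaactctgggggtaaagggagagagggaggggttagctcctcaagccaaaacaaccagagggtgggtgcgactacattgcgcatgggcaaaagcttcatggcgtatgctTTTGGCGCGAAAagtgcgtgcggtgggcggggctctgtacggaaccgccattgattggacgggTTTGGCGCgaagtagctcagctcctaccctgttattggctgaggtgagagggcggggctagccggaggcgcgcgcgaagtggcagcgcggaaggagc
Top2a held CCAAT at 6 places and TTTGAA at 2, Cdk1 held them at 3 and 2, and Mcm6 held TTTNNCGC at 3 places, of which a pair overlaps on opposite strands.

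Genes of the progenitor cell fell as well. Of 21 retinal progenitor genes tested, 14 were lower and none was higher (median −1.57), and between 11 and 14 were called when one array was left out. Fgf15, a growth factor made by progenitors, had 6.6, 6.5 and 6.8 on the P7 WT arrays, against 11.5, 11.6 and 11.1 on the P0 WT arrays, a difference of −4.77 (SE 0.99, adjusted p = 0.0026). Sfrp2, a secreted Wnt inhibitor, had 8.1, 7.5 and 8.0 on the P7 WT arrays, against 10.6, 10.8 and 11 on the P0 WT arrays, a difference of −2.93 (adjusted p = 2.63e-07). Six6 and Cdon, with 10.5, 10.7 and 11.1 on the P7 WT arrays, against 11.3, 11.3 and 11.6 on the P0 WT arrays for Six6 and 11.7, 10.8 and 11.6 on the P7 WT arrays, against 11.1, 11.2 and 11 on the P0 WT arrays for Cdon, were not called. The groups overlapped for Cdon and not for Six6, an eye field factor.

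The proneural and Notch genes, which set when a progenitor becomes a neuron, fell in many cases: 14 of 25 were lower and none was higher (median −1.40), with 11 lower without P0 WT array 2 or P0 WT array 3 and 1 higher without P0 WT array 3. Atoh7, needed for ganglion cells, had 7.6, 6.7 and 7.6 on the P7 WT arrays, against 12.1, 11.5 and 11.2 on the P0 WT arrays, a difference of −4.30 (SE 0.34, adjusted p = 3.53e-07). Neurog2 had 8.6, 8.5 and 8.4 on the P7 WT arrays, against 11.7, 11.6 and 11.9 on the P0 WT arrays, a difference of −3.23 (adjusted p = 2.7e-07). The Notch ligand Dll1 had 9.7, 8.7 and 9.7 on the P7 WT arrays, against 11.2, 11.5 and 11.3 on the P0 WT arrays, and the Notch target Hes5 had 7.1, 7.7 and 7.6 on the P7 WT arrays, against 11, 10.8 and 10.9 on the P0 WT arrays, a difference of −3.43 (adjusted p = 0.00266). Heyl and Nrarp, targets of Notch as well, differed by −2.60 and −2.03. The later factors Neurod1 (above) and Neurod4, with 12.5, 12.2 and 14.2 on the P7 WT arrays, against 13.1, 13 and 12.6 on the P0 WT arrays, overlapped between the ages.

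Müller glia share genes with progenitors, and their list of 29 tested genes held 10 higher and 6 lower (median 0.23). Those lower were Sox9 (7.7, 8.0 and 7.2 on the P7 WT arrays, against 9.5, 9.9 and 10 on the P0 WT arrays), Sox2 (difference −2.0), Hes1 (difference −1.77), Nrarp, Dkk3 and Id1, regulators that progenitors express too. Those higher were led by proteins of mature glia. Mlc1, a membrane protein of glial endfeet, had 7.6, 8.3 and 6.6 on the P7 WT arrays, against 1.9, 2.0 and 2.5 on the P0 WT arrays, a difference of 5.37 (adjusted p = 2.79e-05). Abca8a, a lipid transporter, had 10, 10 and 8.9 on the P7 WT arrays, against 5.3, 4.5 and 4.8 on the P0 WT arrays, a difference of 4.77 (SE 0.31, adjusted p = 5.7e-08). Rlbp1, the retinaldehyde-binding protein, had 11.9, 12.1 and 12.6 on the P7 WT arrays, against 10.7, 10.8 and 10.1 on the P0 WT arrays, and Aqp4, the glial water channel, had 7.9, 8.0 and 6.6 on the P7 WT arrays, against 5.8, 5.5 and 5.6 on the P0 WT arrays. Glul, glutamine synthetase, a standard marker of the cell type, had 11.9, 12 and 12.4 on the P7 WT arrays, against 12.1, 12.2 and 12.6 on the P0 WT arrays and was not called (adjusted p = 0.516), and its adult WT mean was 14.20.

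Bipolar cells, which carry signals from photoreceptors to ganglion cells, had most of their tested genes higher. Of 24 list genes on the array 18 passed the minimum, 12 were higher and none was lower (median 1.48). Pcp2, a G protein modulator, had 11.8, 12 and 10.8 on the P7 WT arrays, against 8.5, 7.9 and 8.2 on the P0 WT arrays, a difference of 3.33 (SE 0.32, adjusted p = 2.34e-06). Scgn, secretagogin, a calcium sensor of cone bipolar cells, had 10.3, 10.4 and 10.3 on the P7 WT arrays, against 7.2, 6.2 and 6.9 on the P0 WT arrays, a difference of 3.57 (adjusted p = 2.16e-07). Prkca, the marker of rod bipolar cells, had 11.6, 11.7 and 10.9 on the P7 WT arrays, against 9.8, 9.6 and 10.1 on the P0 WT arrays, a 2.96-fold higher signal (difference 1.57, adjusted p = 6.06e-04). Vsx1, a factor of cone bipolar cells, had 8.9, 9.6 and 7.8 on the P7 WT arrays, against 5.7, 5.5 and 5.8 on the P0 WT arrays, a difference of 3.10. P7 WT array 3 was the lowest P7 array for Pcp2, Prkca and Vsx1, and without it 15 of 21 tested members were called and the median was 1.87.

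Among the interneurons and ganglion cells, which are older at birth, the lists moved less as a whole. Amacrine cell genes were higher in 9 and lower in 2 of 22 (median 0.37), with 1 lower without P7 WT array 2 or P0 WT array 2. Over all genes tested, 15.0% were higher and 10.4% lower. Among genes of transmission, Slc32a1, the vesicular transporter of GABA and glycine, had 10.1, 10.6 and 9.8 on the P7 WT arrays, against 7.9, 8.9 and 8.3 on the P0 WT arrays, Slc6a9, the glycine transporter, had 10.9, 11.2 and 10.9 on the P7 WT arrays, against 9.4, 9.5 and 9.1 on the P0 WT arrays, and Gjd2, the neuronal gap junction protein, had 11.8, 11.5 and 11.4 on the P7 WT arrays, against 8.7, 9.3 and 8.9 on the P0 WT arrays. Gad1, which makes GABA, had 12.3, 12.5 and 11.9 on the P7 WT arrays, against 10.6, 11.1 and 11.5 on the P0 WT arrays, a difference of 1.17 (SE 0.25, adjusted p = 0.00378). The peptide genes Crh (difference 6.00), Vip (4.50) and Sst (2.23) were higher too, with Vip and Crh far below the minimum at P0. Ptf1a, which commits precursors to the amacrine and horizontal fates, had 4.6, 1.8 and 6.2 on the P7 WT arrays, against 10.8, 10.8 and 10.7 on the P0 WT arrays, the largest loss among the list genes called (difference −6.57, SE 1.05, adjusted p = 3.15e-04). The amacrine factors Meis2 and Tfap2b overlapped between the ages, with differences of −0.10 and 0.10.

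In horizontal cells, 3 of 9 genes were higher and 1, Ptf1a, was lower (median −0.30, but 0.37 without P7 WT array 3 and 0.15 with array quality weights). Calb1, calbindin, had 10.6, 10.6 and 9.6 on the P7 WT arrays, against 7.8, 7.6 and 7.5 on the P0 WT arrays, a difference of 2.63 (adjusted p = 5.68e-06). Lhx1, their defining factor, had 8.0, 8.4 and 6.8 on the P7 WT arrays, against 7.9, 8.0 and 8.2 on the P0 WT arrays and Prox1 had 10.5, 10.7 and 6.7 on the P7 WT arrays, against 9.9, 10.2 and 10.2 on the P0 WT arrays, both not called. The groups overlapped for both, and Prox1 was lowest on P7 WT array 3.

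Ganglion cell genes were higher in 7 and lower in 1 of 21 (median 0.00), with 0 lower without P7 WT array 3 and 2 lower without P7 WT array 2 or P0 WT array 2. Of 3 neurofilament genes, Nefh and Nefm rose, with 10, 10.2 and 9.3 on the P7 WT arrays, against 7.1, 7.5 and 7.4 on the P0 WT arrays for Nefh (difference 2.50, adjusted p = 2.39e-06) and 12, 12.4 and 11.6 on the P7 WT arrays, against 10.3, 10.9 and 10.4 on the P0 WT arrays for Nefm. Nefl, the third, had 14, 13.9 and 13.9 on the P7 WT arrays, against 13.4, 13.6 and 12.7 on the P0 WT arrays and was not called (adjusted p = 0.068). Sncg, a marker of these cells, had 11.8, 11.7 and 12.2 on the P7 WT arrays, against 12.1, 11.6 and 11.2 on the P0 WT arrays, and Gap43, a protein of growing axons, had 11.6, 11.6 and 11.1 on the P7 WT arrays, against 12, 12 and 11.9 on the P0 WT arrays; neither was called.

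Synapse genes rose on both the general and the photoreceptor side. Of 27 genes of the synaptic vesicle cycle tested, 15 were higher and none was lower (median 1.07). Syp, synaptophysin, had 12.7, 12.9 and 13 on the P7 WT arrays, against 11.3, 11.3 and 11 on the P0 WT arrays, a 3.17-fold higher signal (difference 1.67, SE 0.22, adjusted p = 5.82e-05). Syt1, the calcium sensor of release, had 13.6, 13.6 and 13.9 on the P7 WT arrays, against 12.1, 12.4 and 12.1 on the P0 WT arrays, and Snap25 of the fusion complex had 13.9, 13.7 and 13.9 on the P7 WT arrays, against 12.6, 12.9 and 13.1 on the P0 WT arrays, a difference of 0.97 (adjusted p = 0.00214). Amph and Dnm1, which recover vesicle membrane, differed by 2.20 and 2.0. Syt4 and Syt11 overlapped between the ages.

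Photoreceptors release glutamate at ribbon synapses, and of 21 genes of that list 14 were higher and none was lower (median 1.83). Cplx4, a complexin of photoreceptor terminals, had 10.4, 10.8 and 10.4 on the P7 WT arrays, against 6.8, 6.2 and 6.8 on the P0 WT arrays, a difference of 3.93 (SE 0.25, adjusted p = 5.32e-08). Cabp4, which tunes the calcium channel of the terminal, had 10, 10.8 and 9.4 on the P7 WT arrays, against 5.7, 5.4 and 5.7 on the P0 WT arrays, a difference of 4.47 (adjusted p = 2.79e-07). Cacnb2, a subunit of that channel, had 9.8, 10.2 and 9.4 on the P7 WT arrays, against 5.8, 6.1 and 5.8 on the P0 WT arrays, and Slc17a7, the vesicular glutamate transporter, had 9.9, 10.7 and 8.9 on the P7 WT arrays, against 7.1, 6.7 and 5.8 on the P0 WT arrays. Mpp4, a scaffold protein of the terminal, had 12.4, 12.4 and 11.8 on the P7 WT arrays, against 9.1, 9.4 and 9.3 on the P0 WT arrays, a difference of 2.93. Ctbp2, whose locus encodes the ribbon protein, had 13.3, 13.1 and 13.9 on the P7 WT arrays, against 12.9, 13.2 and 12.8 on the P0 WT arrays, and Bsn, bassoon, had 9.5, 9.8 and 8.7 on the P7 WT arrays, against 8.9, 9.4 and 9.2 on the P0 WT arrays, both with overlapping groups and no call.

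On the receiving side, of 13 genes tested for GABA and glycine receptors and chloride transporters, 8 were higher and none was lower (median 1.07). A further 6 of the 19 on the array did not reach the minimum at either age. Without a minimum, 9 of the 19 were higher. Slc12a5, the exporter that makes GABA inhibitory, had 12.8, 12.9 and 12.5 on the P7 WT arrays, against 10.5, 10.9 and 10.2 on the P0 WT arrays, a 4.59-fold higher signal (difference 2.20, SE 0.23, adjusted p = 6.58e-06), whereas Slc12a2, the importer that opposes it, had 11.4, 11.1 and 11.3 on the P7 WT arrays, against 10.9, 11 and 11.2 on the P0 WT arrays and was not called. Gabrr1, a GABA receptor subunit of bipolar terminals, had 9.2, 9.8 and 8.8 on the P7 WT arrays, against 3.4, 6.1 and 6.3 on the P0 WT arrays, and Glra3, a glycine receptor subunit, had 8.9, 9.1 and 7.8 on the P7 WT arrays, against 6.1, 5.6 and 5.8 on the P0 WT arrays. Both lay below 7 on every P0 WT array and so passed the minimum only through P7. Of 15 glutamate receptor genes tested, 3 were higher (median 0.60), where 15.0% of all genes tested were higher. Another 5 did not reach the minimum, and without a minimum 1 of 20 was higher. This count of 3 fell to 0 without P7 WT array 1, P7 WT array 2, P0 WT array 1 or P0 WT array 3. Gria2, the subunit that keeps calcium out of AMPA receptors, had 11.3, 11.4 and 10.6 on the P7 WT arrays, against 10.5, 10.7 and 10.8 on the P0 WT arrays, with overlapping groups.

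Calls among genes of young, growing neurons were no more frequent than over all genes tested, of which 15.0% were higher and 10.4% lower. Of 30 tested, 3 were higher and 2 were lower (median −0.13, which turned to 0.10 when arrays were centred on their medians), and without P7 WT array 3 the counts were 0 higher and 4 lower. With any single P0 WT array left out the count higher was 1, and the count lower was 1 without P7 WT array 2 or P0 WT array 1. Sox11, a factor of newborn neurons, had 9.9, 9.4 and 8.9 on the P7 WT arrays, against 12.7, 12.6 and 12.3 on the P0 WT arrays, a difference of −3.13 (SE 0.38, adjusted p = 2.19e-05). Dcx, doublecortin, had 10.1, 10.3 and 10.2 on the P7 WT arrays, against 11, 11.2 and 11.2 on the P0 WT arrays without overlap. Dcx missed the threshold in the fit over 18 arrays (adjusted p = 0.461). It passed in the fit to the 12 arrays of P0 and P7, which leaves out the adult arrays, and on the 6 arrays alone. Tubb3, neuronal tubulin, had 11.6, 11.8 and 11.5 on the P7 WT arrays, against 12, 12.4 and 12 on the P0 WT arrays and was not called. Of 32 axon guidance genes, 4 were higher and 6 were lower (median −0.37), where 15.0% of all genes tested were higher and 10.4% lower. With any single array but P7 WT array 3 left out the count higher was 2, and the count lower was 3 without P0 WT array 1 or P0 WT array 3. The called genes included Sema3c higher (8.5, 8.6 and 8.2 on the P7 WT arrays, against 6.5, 6.2 and 6.6 on the P0 WT arrays), and Sema4d (9.2, 9.2 and 8.6 on the P7 WT arrays, against 10.2, 10.6 and 10.9 on the P0 WT arrays) and Epha3 (9.1, 9.2 and 9.4 on the P7 WT arrays, against 10.6, 10.7 and 10.5 on the P0 WT arrays) lower.

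Metabolism and chromatin changed in part. Of 19 glycolysis genes, 8 were higher and none was lower (median 0.63). Hk1, the general hexokinase, had 12.1, 12.3 and 12.1 on the P7 WT arrays, against 10, 10.4 and 10.4 on the P0 WT arrays, a difference of 1.90 (adjusted p = 2.24e-05). Hk2, the hexokinase that photoreceptors use in the adult, had 9.1, 9.1 and 8.7 on the P7 WT arrays, against 9.0, 9.0 and 9.4 on the P0 WT arrays and was not called, and its adult WT mean was 12.77. Ldha had 14.3, 13.9 and 15 on the P7 WT arrays, against 13.8, 13.8 and 13.1 on the P0 WT arrays (adjusted p = 0.0734). Among 21 chromatin and DNA methylation genes, 10 were lower and 2 were higher (median −0.33), where 10.4% of all genes tested were lower and 15.0% higher. Uhrf1, which keeps methylation through replication, had 7.4, 6.6 and 7.5 on the P7 WT arrays, against 11.5, 11.7 and 12.1 on the P0 WT arrays, a difference of −4.60 (adjusted p = 3.02e-04), Ezh2, the Polycomb methyltransferase, had 11.2, 10.9 and 11.4 on the P7 WT arrays, against 12.6, 12.8 and 12.8 on the P0 WT arrays, and Dnmt3b, a de novo methyltransferase, had 7.9, 7.7 and 8.1 on the P7 WT arrays, against 9.5, 9.1 and 9.9 on the P0 WT arrays. The 2 genes that rose were Dnmt3a, a de novo methyltransferase (difference 0.97), and Hdac9, a deacetylase (difference 0.70). Without P7 WT array 2 the count higher was 0, and it was 1 when P7 WT array 1 or any single P0 WT array was left out.

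Of 13 foetal growth and imprinted genes tested, 5 were lower, 1 was higher and 7, Ndn and Meg3 among them, were not called (median −0.87). Over all genes tested, 10.4% were lower and 15.0% higher. Another 4 genes of the list did not reach the minimum. Without P7 WT array 3 and P0 WT array 3 together, 3 were lower and the median was −0.30. Igf2bp1, an RNA-binding protein of embryonic tissue, had 5.5, 5.8 and 6.9 on the P7 WT arrays, against 8.8, 9.0 and 8.8 on the P0 WT arrays, and Plagl1, an imprinted zinc finger gene, had 12.2, 12 and 12.5 on the P7 WT arrays, against 14.4, 14.3 and 14.3 on the P0 WT arrays. Igf2, a foetal growth factor, was the gene called higher, with 12.2, 12 and 12.1 on the P7 WT arrays, against 10.9, 10.8 and 10.1 on the P0 WT arrays, a difference of 1.5 (SE 0.27, adjusted p = 7.68e-04). Of 12 cell death genes, 4 were lower and 1 was higher (2 without P7 WT array 3), where 10.4% of all genes tested were lower and 15.0% higher. The list median was 0.22, and with arrays centred on their medians 2 were lower. Casp2 (9.9, 9.8 and 10 on the P7 WT arrays, against 11.4, 11.4 and 11.4 on the P0 WT arrays) and Bcl2 (7.8, 8.4 and 8.0 on the P7 WT arrays, against 9.2, 9.1 and 9.6 on the P0 WT arrays) were both lower. Among 8 immediate early genes tested, 2 were higher, Egr1 and Fos, where 15.0% of all genes tested were higher. Fos lost its call without P7 WT array 1, P7 WT array 2, P0 WT array 2 or P0 WT array 3. Another 6 genes did not reach the minimum, and without a minimum 1 of 14 was higher. Egr1, an activity-induced factor, had 11, 11.6 and 10.7 on the P7 WT arrays, against 7.9, 8.6 and 8.0 on the P0 WT arrays, a difference of 2.93 (adjusted p = 0.00157).

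Genes of blood vessels and of microglia, the immune cells of the retina, were mostly higher at P7. Of 17 endothelium and pericyte genes tested, 10 were higher and 1 was lower (median 2.43), and of 14 microglia genes 10 were higher (median 1.70). The vascular median depended on the minimum, which 6 of 23 genes did not reach. The mean of the 17 was 6.31 at P0 and 8.57 at P7, so some passed only through P7. With a minimum of 8 the median was 1.22 over 10 genes, and without a minimum it was 1.87 over 23. The 1 lower vascular call was lost without any one array other than P0 WT array 1, and 7 microglia genes were higher without P0 WT array 2 or P0 WT array 3. Of the microglia genes, 4 of 18 did not reach the minimum, and the mean of the 14 tested was 7.36 at P0. Without a minimum, 9 of the 18 were higher. The t-test of the study's methods, after Benjamini-Hochberg adjustment, called 4 of 14 microglia genes and 4 of 17 vascular genes higher. Rgs5, a pericyte gene, had 12, 12.5 and 11.9 on the P7 WT arrays, against 8.3, 7.0 and 6.1 on the P0 WT arrays, a difference of 5.0 (SE 0.57, adjusted p = 1.32e-05). Csf1r, the receptor that microglia live on, had 10.8, 10.4 and 10.7 on the P7 WT arrays, against 9.3, 8.7 and 8.3 on the P0 WT arrays, a difference of 1.87 (adjusted p = 1.39e-04). P0 WT array 1 was the highest P0 array for both, and the mean signal of the 23 vascular genes was 8.09, 8.20 and 7.34 on the P7 WT arrays, against 6.34, 5.62 and 5.28 on the P0 WT arrays. Astrocyte genes were higher in 4 of 5, among them Pdgfra, the receptor of retinal astrocytes (11.3, 11.3 and 11.1 on the P7 WT arrays, against 8.9, 9.2 and 8.8 on the P0 WT arrays). Gfap, their filament, had 8.5, 9.3 and 7.0 on the P7 WT arrays, against 8.0, 7.0 and 6.9 on the P0 WT arrays and was not called. In the other lists of this kind, 2 of 12 collagen and mesenchyme genes were higher (4 without P0 WT array 1), against 15.0% of all genes tested. Of 2 myelin genes, 1, Cnp, was lower, a call lost without P7 WT array 1, P7 WT array 2, P0 WT array 1 or P0 WT array 2. Of the red blood cell list, 0 of 3 genes tested were called.

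Pigment epithelium, a tissue that lies against the retina and can come away with it, was higher at P7 in 7 of 10 genes and lower in none (median 2.32). The mean of the 10 was 6.90 at P0, so some passed the minimum only through P7, and 3 further genes did not reach it. Rpe65, its visual cycle isomerase, had 8.1, 9.4 and 6.7 on the P7 WT arrays, against 1.6, 1.5 and 3.0 on the P0 WT arrays, a difference of 6.03 (adjusted p = 1.16e-05). Ttr, a thyroxine carrier of this tissue, had 13.3, 13.7 and 13.6 on the P7 WT arrays, against 8.2, 10.7 and 9.5 on the P0 WT arrays. The mean over the 13 genes was 8.41, 8.78 and 8.51 on the P7 WT arrays, against 6.22, 6.34 and 6.3 on the P0 WT arrays, without overlap. Its part in the results for shared genes was not tested. Lens genes were lower in 2 of 14 (median −4.27), a count that was 11 without P0 WT array 2, 0 without P7 WT array 1, P0 WT array 1 or P0 WT array 3, and 1 without P7 WT array 2 or P7 WT array 3. Cryaa, a lens crystallin, had 3.3, 6.8 and 2.7 on the P7 WT arrays, against 11.9, 4.8 and 14.6 on the P0 WT arrays, with overlapping groups. Without P0 WT array 3, or without P0 WT array 1, 36 mitosis genes and 20 rod genes were called, and the part of lens RNA in the other results was not tested.

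**Figure D3:**
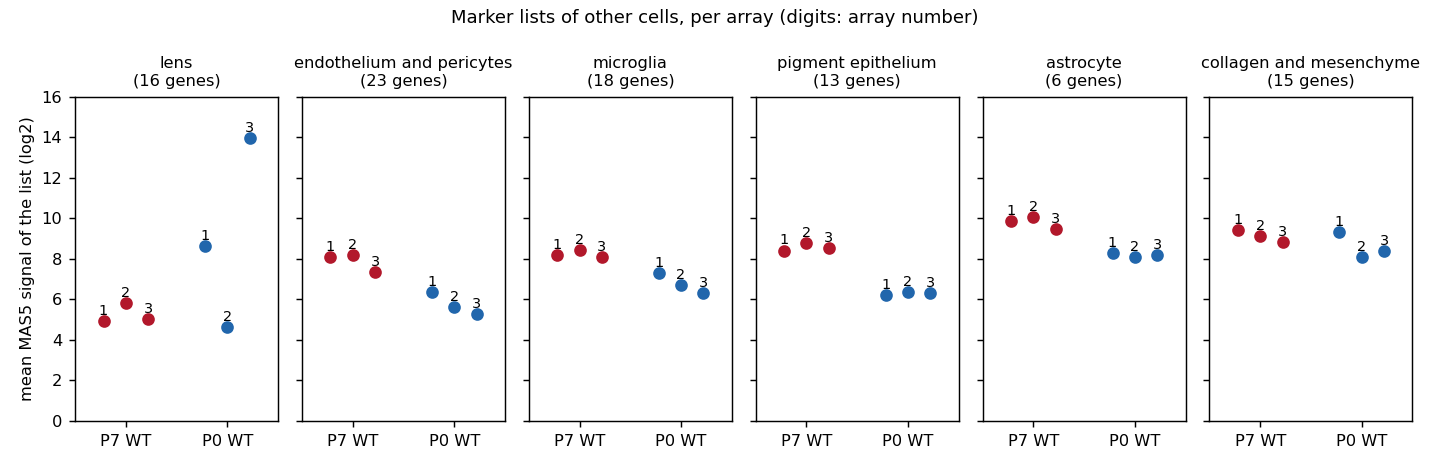
Mean MAS5 signal (log2, y axis) over the genes of 6 marker lists of cells other than retinal neurons and Müller glia, on each P7 WT array (red, left) and each P0 WT array (blue, right), with the array number above each point. The lens list spans 4.61 to 13.97 on the P0 WT arrays, and the pigment epithelium list lies higher on each P7 WT array than on any P0 WT array.

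Beyond the lists, the smallest p-values among genes that rose belonged to AI847159 (10, 10 and 10 on the P7 WT arrays, against 5.4, 5.6 and 5.1 on the P0 WT arrays, adjusted p = 1.84e-09), Wdr17 (11.5, 11.3 and 10.9 on the P7 WT arrays, against 7.7, 7.4 and 7.1 on the P0 WT arrays, difference 3.83), Llgl2, a polarity protein (10.4, 10.3 and 10.4 on the P7 WT arrays, against 7.6, 7.3 and 7.2 on the P0 WT arrays), BC034090 (11.7, 11.9 and 11.9 on the P7 WT arrays, against 8.8, 9.0 and 9.1 on the P0 WT arrays), A330094K24Rik (9.2, 9.4 and 9.5 on the P7 WT arrays, against 5.9, 5.6 and 5.9 on the P0 WT arrays) and Ppargc1b, a coactivator of mitochondrial genes (11.5, 11.2 and 11 on the P7 WT arrays, against 7.4, 7.2 and 7.3 on the P0 WT arrays, difference 3.93). Rdh12 and Cplx4 completed that group of 8. In each of these genes the P7 arrays lay above the P0 arrays without overlap, as in 23.3% of all genes tested. The genes were picked by their p-values on these same arrays, so this lack of overlap adds no support.

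The Plk3-KO retinas gave a first-week difference from other arrays, which enter the WT difference only through the variance of the fit over 18 arrays. Of the 4717 probe sets called in WT, 4706 differed in the same direction between P7 and P0 in Plk3-KO retinas, 9 in the opposite one and 2 not at all. The share with the same direction was 99.8% of those called, 85.7% of all tested and 82.1% of those not called, and since the Plk3-KO arrays helped to set the variance behind the calls, the first share is not independent of them. Rod phototransduction had a median of 3.70 in WT and 3.93 in Plk3-KO retinas, and mitosis −3.92 in WT and −4.23 in Plk3-KO retinas. Other lists were less alike. The endothelium and pericyte median was 2.43 in WT and 1.47 in Plk3-KO, and the pigment epithelium median was also lower in Plk3-KO. Medians of collagen and mesenchyme (0.32 in WT, −0.17 in Plk3-KO) and Müller glia (0.23 in WT, −0.03 in Plk3-KO) differed in sign. Differences between the genotypes in list medians were not tested. Nrl differed by 2.40 in WT and 2.60 in Plk3-KO, Mki67 by −4.13 in WT and −4.40 in Plk3-KO, and Syp by 1.67 in WT and 1.67 in Plk3-KO. A test of the difference between the genotypes in this step called 0 of 23411 probe sets (limma, 0.0%), with 105 at an unadjusted p under 0.05. A fit to the 12 arrays of P0 and P7 also called 0, with 171 under 0.05, and array quality weights called 0, with 808. If no probe set differed, about 1171 would lie under 0.05. The p-values of this test thus ran high, so its 0 calls say little, and the reason was not tested. Mlana, a pigment cell gene, lay furthest from equality among called genes that rose, with 4.43 in WT and 0.33 in Plk3-KO, a difference that did not pass. With 3 arrays a group, such a count does not show that the genotypes are alike.

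**Figure D4:**
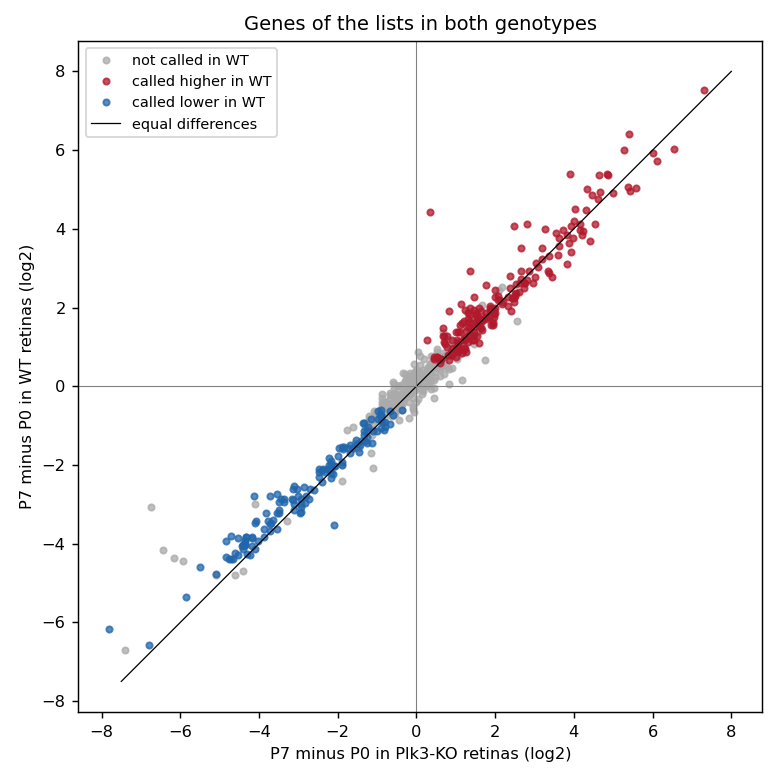
P7 minus P0 difference in WT retinas (log2, y axis) against that in Plk3-KO retinas (log2, x axis) for the 570 tested genes of the lists, coloured by their call in WT, with the line of equal differences. Most points follow the line, and Mlana, at 4.43 in WT and 0.33 in Plk3-KO, lies far above it.

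The adult WT arrays extend each list by a further age. The mean signal of the 21 tested rod genes was 8.04 at P0, 11.88 at P7 and 13.89 in adult WT retinas. For the 36 mitosis genes it was 11.37, 7.58 and 5.55, for the 27 synaptic vesicle genes 10.15, 11.21 and 11.78, and for the 21 ribbon synapse genes 9.20, 11.13 and 11.75 in the same order. Among single genes, Gnat1 had means of 4.97, 11.37 and 16, Crx 11.87, 13.77 and 13.87, and Calb1 7.63, 10.27 and 12.87. The adult values share the P7 arrays with the first-week difference and are given as a description, without a test.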

How the data were processed

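The deposited table holds log2 signals, to 1 decimal, that the authors made from Affymetrix mouse genome arrays with MAS5 in the Bioconductor affy package. For MAS5 itself, the version was not given in the sources used here. Of 45101 probe sets, 64 controls were left out, and 23411 with a mean above 7 at P7 or P0 in WT were tested. limma 3.58.1 in R 4.3.3 fitted 6 group means to 18 arrays, with a trended variance and Benjamini-Hochberg adjustment at 0.05. Each gene took its probe set of highest mean over the 6 WT arrays. The methods' t-test, other scalings, filters, a replicate block and left-out arrays were alternatives. Members and lists were chosen with earlier results of these data known. The rule for named genes took the 8 smallest p-values in each direction among differences of at least 1, in each list up to 5 called members of largest difference and the 2 members of highest mean that were not called, and well-known retinal genes chosen by name. Genes outside it (Bbs2, Cngb1, Dkk3, Dnmt3a, E2f3, Gngt1, Gucy2e, Hdac9, Hes1, Id1, Mpp4 and Sox2) and the promoters shown were chosen after their values or matches were seen. Embryonic arrays were not analysed here. The fit was also run on simulated data, with independent normal noise of equal spread in every group. Such data cannot reveal unequal spread between groups or deviations that arrays share.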

Additional observations from a re-analysis of the deposited data

How the results depend on the processing

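Of 170 called genes taken by the naming rule, none changed direction under an alternative. Of these, 118 stayed called in every alternative but the test against a log2 difference of 1, which called 94. The methods' t-test with Benjamini-Hochberg adjustment called 124. Among those it did not call were Prph2, Plk2, Plk5, Gad1, Aqp4, Nefm, Slc32a1, Slc17a7 and Gabrr1. Genes named outside the rule are not in these counts. The medians of the 7 lists given below kept their sign. Among the other lists, the median changed sign for immature neuron genes (centring), horizontal cell genes (array quality weights, without P7 WT array 3, and without P7 WT array 3 and P0 WT array 3) and red blood cell genes (without P7 WT array 2), and the median of all probe sets changed sign with centring. The counts of probe sets higher and lower at P7 were 4131 and 3780 with array quality weights (an estimate that did not converge), 1384 higher with the methods' t-test after Benjamini-Hochberg adjustment, 3996 lower with that test unadjusted, 355 and 340 when tested against a log2 difference of 1, 1058 lower with arrays centred on their median, and 1304 lower without P7 WT array 3 and P0 WT array 3, a choice made after seeing the data. Leaving out one array gave 1832 to 2465 higher and 1473 to 2006 lower, the lowest count of lower calls being that without P0 WT array 3. The retinal progenitor median was −1.33 with weights and with centring, −1.42 after quantile normalization, −1.35 without both arrays and −1.17 without probe sets that may cross-hybridise. The DNA replication median was −2.55 with weights and without both arrays, and −2.47 without such probe sets. With centring, the synaptic vesicle median was 1.30 and the ribbon synapse median 2.07. With one array left out, medians were 3.52 to 3.83 for rod, 1.34 to 1.87 for bipolar, −1.78 to −1.38 for progenitor, −2.57 to −2.10 for replication, −4.23 to −3.73 for mitosis, 0.95 to 1.20 for vesicle and 1.67 to 1.90 for ribbon genes. The cause of these shifts was not tested.

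With the replicate number as a block, 2372 probe sets were higher and 2067 lower. Same-numbered arrays correlated in their deviations at −0.03, 0.19 and 0.01. The labels do not say whether the numbers pair the samples, and with 3 arrays in a group these values cannot decide it. The main fit did not treat them as paired. Signals near or below the minimum of 7, and 3 arrays in a group, limit the precision.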
